A study of Mus musculus with 2 samples.

Results

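The miR-26 family was followed in quadriceps, a large thigh muscle, of mice that overproduce 2 proteins of an RNA-binding complex. Its members are miR-26a (mmu-miR-26a on the array) and miR-26b (mmu-miR-26b), taken by their exact names on the array with all their probes and all spots not marked as outliers, and they are 2 of 1023 mouse miRNAs measured. The tested animals were NF90-NF45 double transgenic (dbTg) mice, and the controls were wild type (WT). All were female and 15 to 16 weeks of age. With a single 1-colour miRNA array of total RNA per genotype there was nothing to test against, and every difference given is between 2 RNA samples. The labels give neither the promoter of the transgenes, nor the strain, nor whether a sample came from 1 animal or a pool. NF90 and NF45 are partners in a complex that binds double-stranded RNA. The complex is known to hinder the processing of some primary miRNA transcripts by the Microprocessor. The comparison therefore asks which mature miRNAs differ when both proteins are in excess.

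A miRNA guides an Argonaute protein to mRNAs that pair with its seed, and so lowers their translation and stability. miR-26 miRNAs are made from introns of the Ctdsp genes, which encode phosphatases of the RNA polymerase II tail, and host and miRNA are often expressed together. In muscle, miR-26a is known to favour the differentiation of myoblasts by lowering Ezh2, the histone methyltransferase that keeps muscle genes silent, and Smad proteins, which carry TGF-β and BMP signals.

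The 2 members are shown first as mature sequences, with the seed (bases 2 to 8) in capitals, because the seed decides which mRNAs they bind. These sequences are from RefSeq, on GRCm38.p6, where the entries are the 5p arms, written 5′ to 3′.
miR-26a: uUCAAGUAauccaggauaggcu
miR-26b: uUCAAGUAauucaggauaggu
The seed UCAAGUA is shared, and of 1679 mature mouse miRNAs in that table only these 2 names carry it. miR-26a has 22 bases and miR-26b has 21. Over the shorter length 19 bases are the same, and the differences are C11U and C21U, with miR-26a's base first and positions counted from 1 at the 5′ end. Both differences lie outside the seed.

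The hairpins are shown next, because the Microprocessor acts on them within primary transcripts and because miR-26a comes from more than 1 of them. Whether NF90-NF45 act on the miR-26 transcripts was not tested. Both mature arms are in capitals, again from RefSeq.
Mir26a-1: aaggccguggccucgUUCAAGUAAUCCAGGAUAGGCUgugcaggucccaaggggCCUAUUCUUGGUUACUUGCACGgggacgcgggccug
Mir26a-2: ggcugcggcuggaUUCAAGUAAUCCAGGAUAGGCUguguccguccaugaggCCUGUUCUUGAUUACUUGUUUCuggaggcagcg
Mir26b: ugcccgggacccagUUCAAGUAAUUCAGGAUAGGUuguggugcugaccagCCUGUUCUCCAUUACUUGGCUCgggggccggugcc
Mir26a-1 lies within the span of Ctdspl on chromosome 9, Mir26a-2 within Ctdsp2 on chromosome 10 and Mir26b within Ctdsp1 on chromosome 1. Mir26a-1 and Mir26a-2 give the same 5p arm, so a level of miR-26a is a sum over both genes and the array cannot divide it. Their 3p arms differ, and on the array these second arms have probes of their own, named miR-26a-1*, miR-26a-2* and miR-26b*.

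Each member was read by 2 probes, printed below 5′ to 3′ with the bases that face a substitution between the members in capitals. The first base of each miR-26a probe faces base 22, which miR-26b lacks, and is left in lower case. The probes show how far the array can tell the members apart.
A_54_P2481, for miR-26a: aGcctatcctgGatt
A_54_P4384, for miR-26a: aGcctatcctgGatta
A_54_P2483, for miR-26b: AcctatcctgAattacttg
A_54_P2484, for miR-26b: AcctatcctgAattacttga
The miR-26a probes have 15 and 16 bases and pair with mature bases 8 to 22 and 7 to 22. The miR-26b probes have 19 and 20 bases and pair with bases 3 to 21 and 2 to 21. All 4 therefore reach the last base of their miRNA. A probe of one member differs from a probe of the other by at least 2 bases over ungapped overlaps of at least 14 bases, and the next nearest miRNA was miR-493* at 4 mismatches for miR-26a, with miR-181b-2* and miR-1949 at 5 for miR-26b. How much either miRNA adds to the other's signal was not tested. In the files, on mm9, the longer miR-26a probe maps to chr9:118940935-118940950 and to chr10:126432605-126432620. The longer miR-26b probe maps to chr1:74440900-74440918, a stretch 19 bases long for a probe of 20.

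Before any scaling, all 4 miR-26 probes were brighter on the dbTg array. Each probe had 20 spots, none was saturated, and every spot used was well above background by the flag of Feature Extraction, the scanner software. Signals here are processed signals, in intensity units after subtraction of a background that averaged between 73.8 and 76.6 for these probes. The 15-base probe of miR-26a read 4667 ± 127 on the dbTg array (SD over 20 spots; lowest 4447, median 4628, highest 4970) and 4072 ± 163 on the WT array (SD over 20 spots; lowest 3773, median 4096, highest 4383). The 16-base probe of miR-26a read 8214 ± 353 on the dbTg array (SD over 20 spots; lowest 7487, median 8301, highest 8613) and 6949 ± 303 on the WT array (SD over 19 spots; lowest 6316, median 6967, highest 7409). For both miR-26a probes, the 20 dbTg spots all lay above the brightest WT spot, at 1.15 and 1.18 times the WT mean.

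The raw brightness of miR-26b differed more. Its 19-base probe read 1720 ± 70.0 on the dbTg array (SD over 20 spots; lowest 1598, median 1719, highest 1856) and 1286 ± 47.9 on the WT array (SD over 19 spots; lowest 1195, median 1302, highest 1373). Its 20-base probe read 2749 ± 89.0 on the dbTg array (SD over 20 spots; lowest 2635, median 2730, highest 2929) and 2063 ± 55.6 on the WT array (SD over 19 spots; lowest 1938, median 2072, highest 2152). Again no dbTg spot overlapped the WT spots, and the folds were 1.34 and 1.33. The spread between spots of a miR-26 probe was 2.69% to 4.36% of its mean. Spots are copies on 1 array, so these errors cover neither labelling nor animals.

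**Figure D1:**
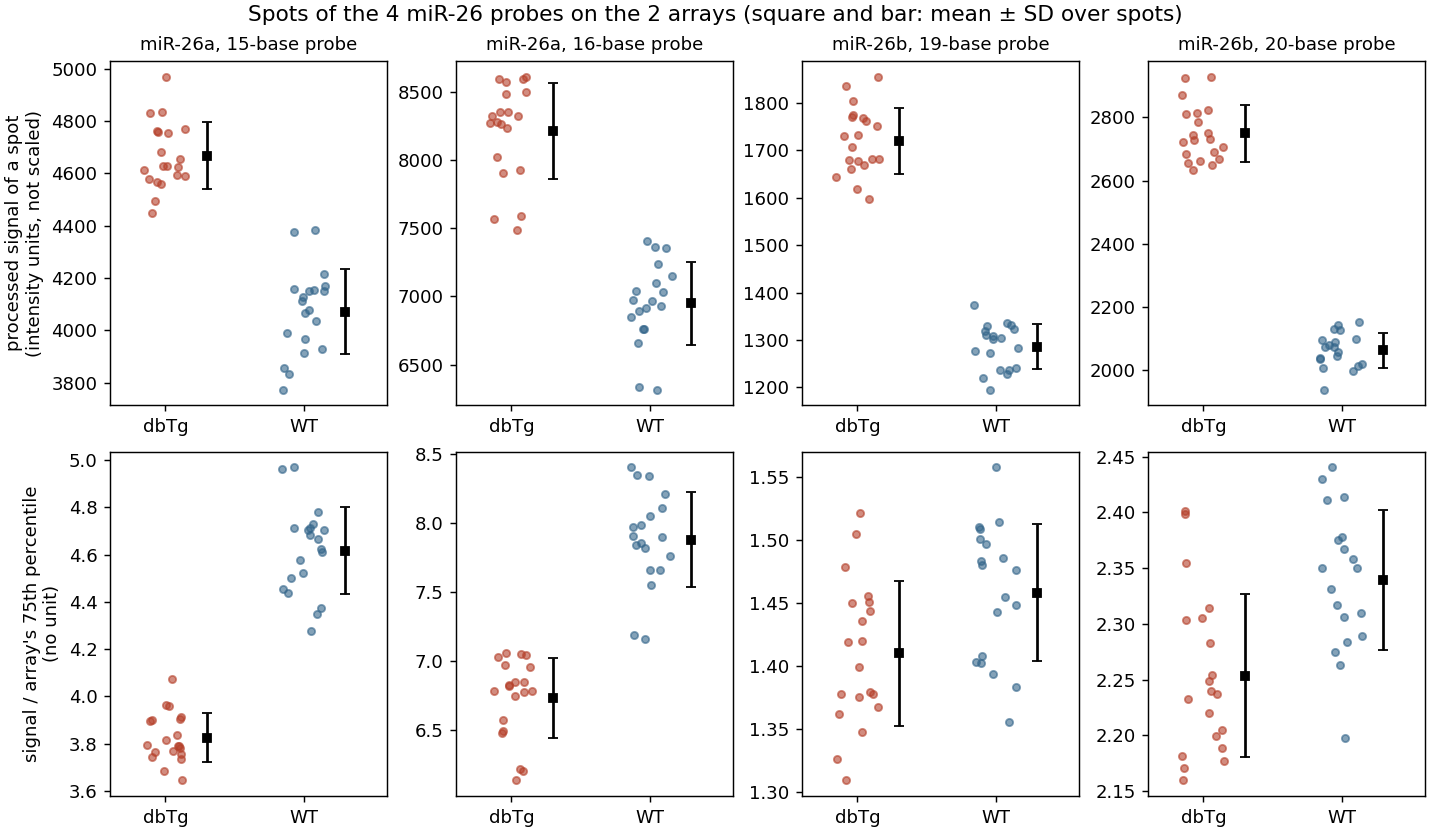
Signal of every spot of the 4 miR-26 probes, dbTg left and WT right in each panel, with the mean ± SD over spots as a square and bar. The upper row is processed signal in intensity units, where every dbTg spot lies above every WT spot. In the lower row each array is divided by its own 75th percentile, and there all dbTg spots of the miR-26a probes lie below the WT spots while those of the miR-26b probes overlap them. Vertical axes do not start at 0.

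The dbTg array was brighter as a whole, so the arrays were put on 1 scale. The divisor was, for each array, the 75th percentile over probes that both arrays detected, 1220 on dbTg and 882 on WT. After this, the 15-base miR-26a probe had a scaled signal of 3.83 in dbTg and 4.62 in WT, and the 16-base probe 6.73 in dbTg and 7.88 in WT. All 20 dbTg spots of each lay below the lowest WT spot. For miR-26b the 19-base probe had a scaled signal of 1.41 in dbTg and 1.46 in WT, with 17 of 20 dbTg spots inside the WT range. The 20-base probe had 2.25 in dbTg and 2.34 in WT, with 15 of 20 inside.

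On this scale miR-26a had a log2 ratio of -0.25 (dbTg minus WT, mean over its 2 probes; spot SE 0.013), which is 1.19-fold lower in dbTg. miR-26b had a log2 ratio of -0.051 (spot SE 0.011), or 1.04-fold lower. Neither reached the 2-fold size used for counting. Of the 175 mouse miRNAs detected on both arrays, 18 (10.3%) passed that size as lower in dbTg and 20 (11.4%) as higher. These counts were 8 and 49 without scaling and 48 and 7 on the scale of positive control probes. A log2 ratio below 0 was shared by 86 of the 175 (49.1%), about as many as had one above 0. A further 36 miRNAs were detected on the dbTg array alone and 5 on the WT array alone. Detection was judged before scaling, and on the brighter dbTg array 17.7% of spots were well above background, against 14.9% on WT. Ordered from the lowest ratio, miR-26a came 69th and miR-26b 83rd. Both lay between the quartiles of -0.59 and 0.58, around a median of 0.0031 and inside a full range from -2.11 for miR-29c* to 4.11 for miR-206. The brightness of quadriceps RNA cannot tell fewer cells of a type from less miRNA in each cell.

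**Figure D2:**
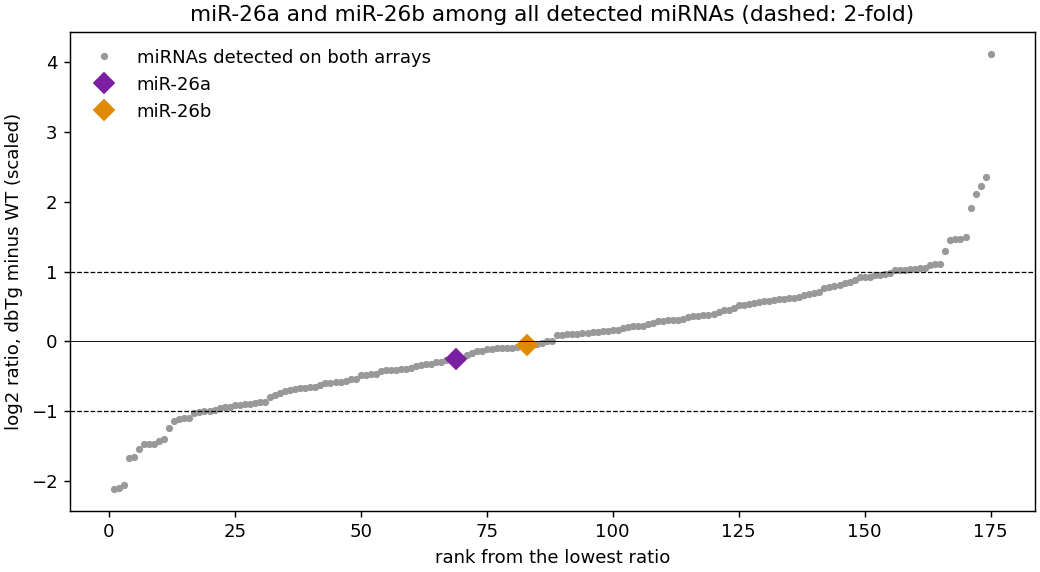
Log2 ratio (dbTg minus WT, scaled) of the 175 miRNAs detected on both arrays, ordered from the lowest, with miR-26a at -0.25 and miR-26b at -0.051 as diamonds and dashed lines at 2-fold. Both diamonds lie in the flat middle of the curve.

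The direction of both members depends on the scale chosen. miR-26a had log2 ratios of 0.22 without scaling and 0.054 on the spike-in scale, and miR-26b of 0.42 and 0.25. Under the other 14 settings tried, both were below 0, down to -0.71 for miR-26a and -0.51 for miR-26b on the positive control scale. The authors' deposited table has values of 31.4 in dbTg and 41.9 in WT for miR-26a, and of 10.9 in dbTg and 12.7 in WT for miR-26b, which are log2 ratios of -0.42 and -0.22. The median was -0.17 over the 192 of its 1023 miRNAs that were compared.

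The control probes spotted on each array show how far apart such scales lie. Without scaling, the 8 detected probes of sets named dmr, taken here as the spike-ins, had log2 ratios from 0.067 to 0.30 with a median of 0.17. The 19 detected probes of the sets hur_1, hur_2, hur_4, hur_6 and mr_1 ran from 0.73 to 1.78. The miR-26a probes, at 0.20 and 0.24, lay within the span of the spike-ins. The miR-26b probes, at 0.42 and 0.41, lay between both kinds of control and close to the median of all miRNAs, 0.47.

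**Figure D3:**
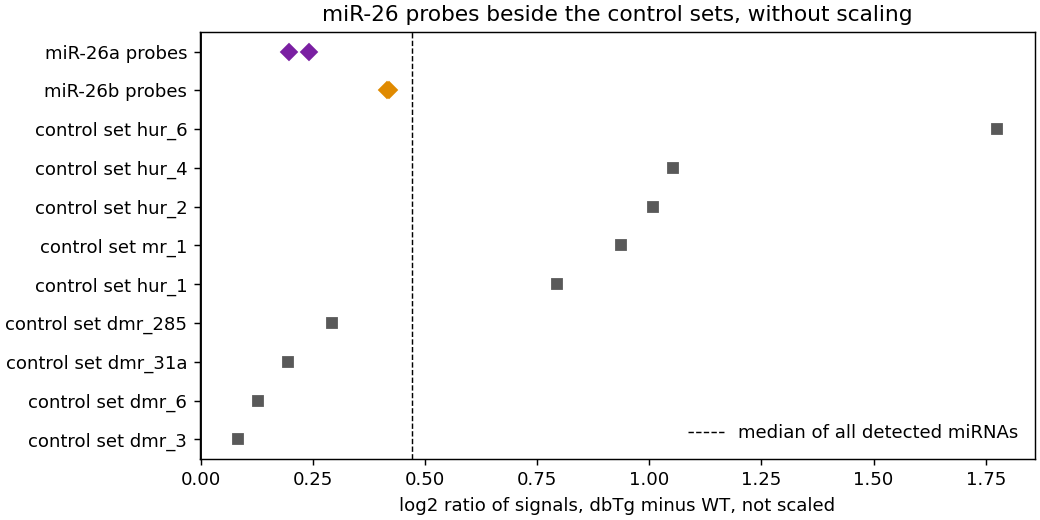
Log2 ratio of signals without scaling (dbTg minus WT) for the 2 probes of each miR-26 member, as diamonds, and for each detected control set (median over its probes), as squares. The dashed line is the median of the 175 miRNAs, 0.47. The miR-26a probes sit among the dmr sets, and the hur and mr sets lie from 0.79 to 1.77.

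The members did not move alike, and this comparison needs no scale between arrays. The log2 ratio of miR-26a minus that of miR-26b was -0.20 (spot SE 0.017), so the quotient of miR-26a over miR-26b signal in dbTg was 0.872 times that in WT. Each of the 4 pairings of a miR-26a probe with a miR-26b probe gave a difference below 0, from -0.22 to -0.17. The 2 probes of miR-26a differed from each other by 0.044 in log2 ratio and those of miR-26b by 0.0055. In the 135 miRNAs for which both arrays detected 2 or more probes, probes of the same miRNA differed by a median of 0.054, and 12 of them (8.89%) by 0.20 or more. The difference between the members was therefore larger than the probe spread of most miRNAs, but it is no larger than that of the 12. Over the 16 alternative settings it ran from -0.21 with spots from the upper rows of the array alone to -0.17 with the brighter probe of each member alone. Kept apart by position on the array, it was -0.21 over the upper and -0.19 over the lower rows. With 1 array per genotype the spread between animals of such a difference is unknown.

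**Figure D4:**
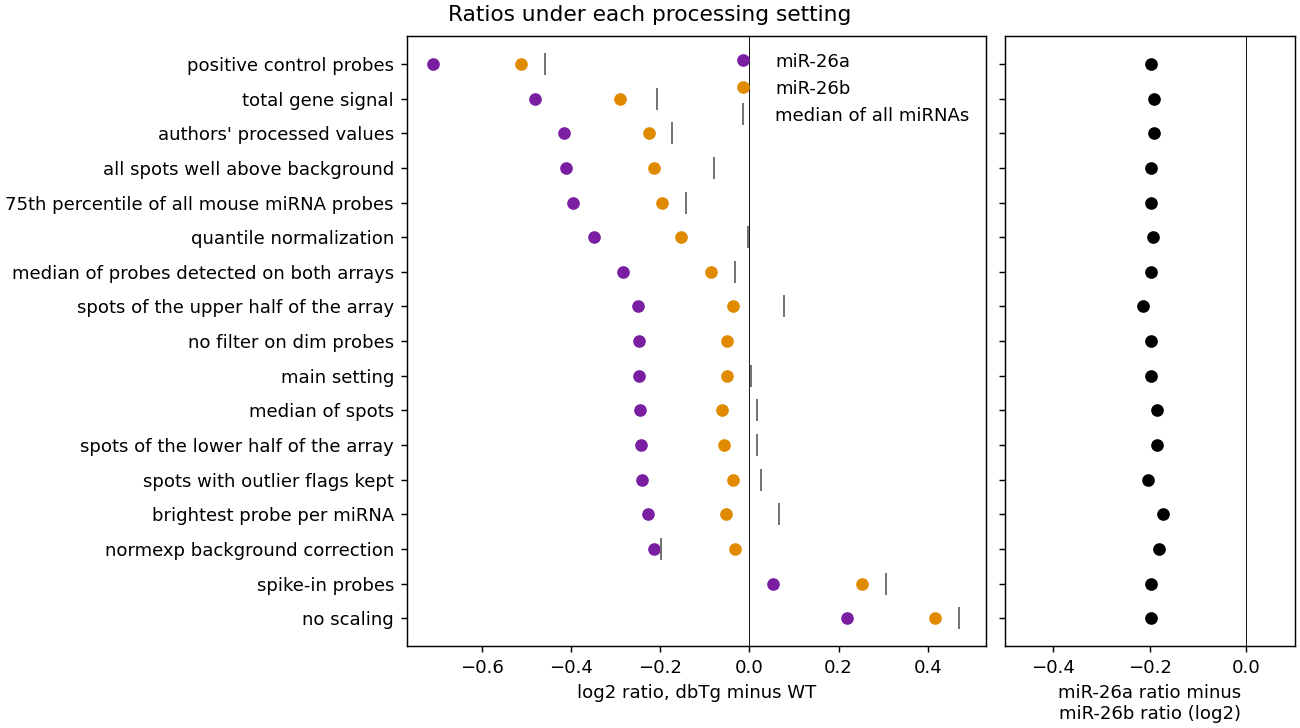
Left, log2 ratio (dbTg minus WT) of miR-26a and miR-26b under each setting, with the median of the miRNAs compared in that setting as a tick. No tick is drawn for the setting without a filter on dim probes. Both members are below 0 except with spike-in scaling and without scaling. Right, the miR-26a ratio minus the miR-26b ratio, which stays between -0.21 and -0.17.

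The second arms of the hairpins gave no signal on either array. Of the spots used for the 8 probes of miR-26a-1*, miR-26a-2* and miR-26b*, 0 of 114 on the dbTg array and 0 of 114 on the WT array were well above background. Probe means ran from -2.04 to 8.44 on dbTg and from -2.54 to 6.26 on WT, in intensity units, where the dimmest detected probe had 32.3 on dbTg and 34.5 on WT. In the authors' deposited table the 3 second arms stood at the lowest value of both columns. No fold can be given for them, and the share of miR-26a that came from Mir26a-1 or from Mir26a-2 could not be read from their 3p arms. For reference, these arms are printed with bases 2 to 8 in capitals, since the 3p arms of Mir26a-2 and Mir26b share those bases and that of Mir26a-1 does not.
miR-26a-1*: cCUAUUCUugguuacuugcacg
miR-26a-2*: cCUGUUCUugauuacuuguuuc
miR-26b*: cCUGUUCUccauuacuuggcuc

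Other miRNAs with a known part in myogenic differentiation spread over both sides of the miR-26 values. Of 15 listed as promoting it, both arrays detected 13, of which 3 passed 2-fold as lower in dbTg and 3 as higher, where 10.3% and 11.4% of all 175 did so. These counts were 1 and 4 without scaling and 5 and 1 on the positive control scale. They leave out miR-503, detected on neither array, and miR-486, which no array name matched exactly. The hairpin products miR-486* and miR-3107, at -2.10 and -1.47, were not counted for it. Among the 13, the lowest log2 ratio was -1.47 for miR-378, which lowers the MyoD inhibitor MyoR. The highest was 4.11 for miR-206, a miRNA of satellite cells and regenerating fibres. The median log2 ratio of the 13 was -0.32, against 0.0031 over all 175. That median came to 0.14 without scaling, to 0.00 with quantile normalization and to -0.79 on the positive control scale. At -0.25 in the main setting, miR-26a lay close to the middle of this list, and its size was small beside the members at either end. With quantile normalization miR-26a was at -0.35, farther from the list median of 0.00.

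Of 5 miRNAs listed as holding differentiation back, 4 were detected on both arrays and the other, miR-222, was among the 36 detected on dbTg only. Their median was 0.86, and 1 of the 4 passed 2-fold, higher in dbTg, as did 11.4% of all 175. Without scaling the median was 1.33 with 3 of the 4 past 2-fold, and on the positive control scale it was 0.40 with 0 of the 4. The highest was miR-23a, which lowers myosin heavy chain genes, at 1.10. The lowest was miR-125b-5p, which targets the growth factor IGF-II, at 0.36, and it was -0.10 on the positive control scale. Both miR-26 members had lower ratios than each of these 4.

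The other miRNAs known to target Ezh2 lay on both sides of 0. Of 5 listed, 3 were detected on both arrays and miR-138 and miR-217 on neither. miR-214, made in fibroblasts and in differentiating myoblasts, had a log2 ratio of 1.04. Its value was 0.93 with quantile normalization and 0.58 on the positive control scale. miR-101b, which targets Ezh2 mRNA in many tissues, had -0.90, and miR-101a, of the same seed family, had -0.42 and came to 0.044 without scaling. miR-26a, the member best known for this target, lay between miR-101a and miR-214.

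miRNAs from other introns lay on both sides of 0. Of 25 listed miRNAs from introns of protein-coding genes other than the Ctdsp genes, both arrays detected 19, of which 1 passed 2-fold as lower in dbTg and 3 as higher, beside 10.3% and 11.4% of all 175. These counts were 1 and 4 without scaling and 4 and 2 on the positive control scale, and ratios above 0 numbered 15 and 5 of the 19 on those scales. They ran from -1.47 for miR-378, from the PGC-1β gene, to 1.92 for miR-342-3p, from Evl. The median was 0.16, or -0.30 on the positive control scale. The mRNAs of Ctdsp1, Ctdsp2 and Ctdspl were not analysed here.

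**Figure D5:**
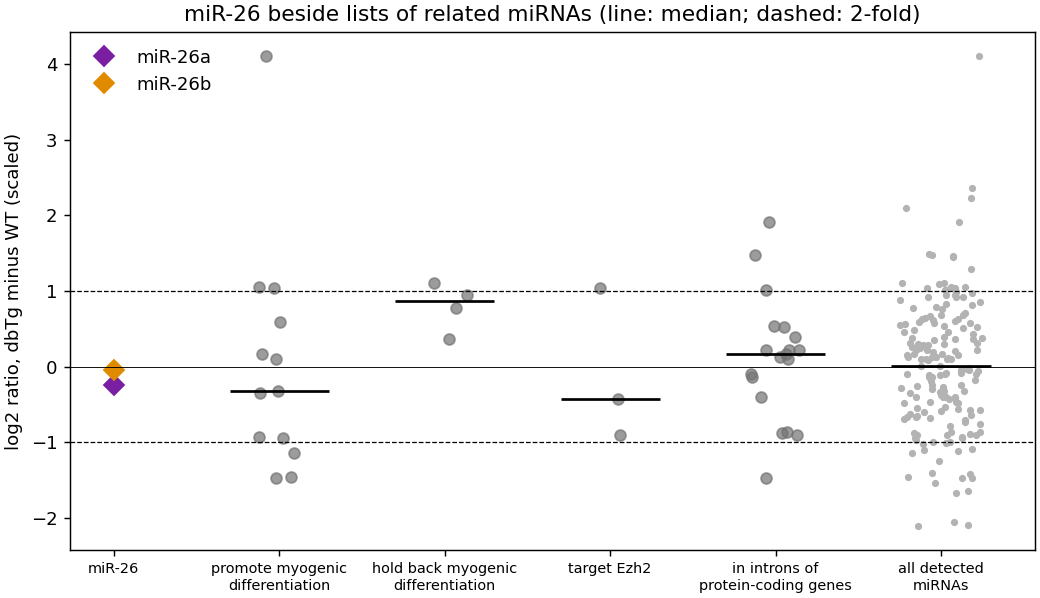
Log2 ratio (dbTg minus WT, scaled) of the miR-26 members, as diamonds, beside the detected members of 4 lists and all 175 detected miRNAs, as points, with the median of each as a line and 2-fold as dashed lines. The lists reach from -1.47 to 4.11 where both miR-26 values lie within 0.25 of 0.

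Cell-type markers checked the label of the tissue. The muscle miRNAs miR-1, miR-133a, miR-133b and miR-206 were detected on both arrays and miR-499 was among the 36 detected on dbTg only. No array name matched miR-486 exactly. The hairpin products miR-486*, miR-3107 and miR-3107*, which this list does not count, were detected on both arrays, at -2.10, -1.47 and -2.05. The summed scaled signal of the muscle list was 178 in dbTg and 315 in WT. Of its members, miR-1, miR-133a and miR-133b had log2 ratios of -0.93, -1.14 and -0.94 and miR-206 one of 4.11. The list median was -0.94, or -0.068 with quantile normalization. The liver miRNA miR-122 and the neuronal miR-124 and miR-9 were detected on neither array, and of 5 epithelial miRNAs miR-200a and miR-200b were among the 36 detected on dbTg only. The 6 immune-cell miRNAs had a summed scaled signal of 2.31 in dbTg and 0.699 in WT, with 5 detected on both arrays and a median log2 ratio of 1.11, which was 1.58 without scaling and 0.65 on the positive control scale. The 5 fibroblast miRNAs had a summed scaled signal of 4.14 in dbTg and 2.30 in WT and a median of 0.85, which was 1.32 and 0.39 on those scales. The endothelial pair had a median of 0.019, which was 0.49 without scaling and -0.44 on the positive control scale. The smooth muscle pair had -0.65, which was -0.18 and -1.11 on those scales. The red cell pair had -0.28, which was 0.19 without scaling, 0.024 on the spike-in scale and -0.74 on the positive control scale. In the main setting, miR-26a at -0.25 was near the red cell pair and farther from 0 than the endothelial pair. miR-26 is known from many cell types, and the part of such cells in its values was not tested.

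The miRNAs nearest to each member in log2 ratio, over the 2 arrays, come from other seed families. For miR-26a these were miR-300 at -0.24, miR-98, a let-7 relative, at -0.25 and miR-144, of the erythroid cluster, at -0.27, which differ from it by 0.0050, 0.0058 and 0.019. For miR-26b they were miR-494 at -0.051, miR-504* at -0.064 and miR-324-5p at -0.036, which differ from it by 1.82e-05, 0.013 and 0.015. miR-300 was dim, at 42.4 in dbTg and 36.3 in WT before scaling, where the dimmest detected probes had 32.3 and 34.5. miR-26a read 6441 in dbTg and 5510 in WT, as means over its probes. None of the 6 carries the miR-26 seed. Each of the 6 has a spot SE, from 0.018 to 0.078, larger than its own gap. With 2 arrays a like ratio says only that the values are near each other.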

How the data were processed

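The authors deposited, per the file headers, spot intensities from Agilent Feature Extraction 10.7.3.1, with background subtraction and spatial detrending and no scaling between arrays. Both arrays were of 1 design, on 1 slide with 1 scan time. Total RNA was labelled with Cy3, per the labels' protocols. The deposited processed table holds linear intensities. Both miR-26 values in it equal the total gene signal of Feature Extraction over 154 on dbTg and over 74.3 on WT. No source used here gives the origin of these constants.

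Spots with an outlier flag were left out and processed signals averaged per probe. A probe counted as detected if a share of 0.5 or more of its spots was flagged well above background. Arrays were divided by the 75th percentile of probes detected on both, and ratios are means of log2 differences over probes. Spot SE comes from the spread between spots. With 1 array per genotype no test was made. The number of arrays limits the precision. Background was also corrected with normexp (limma 3.58.1, offset 50), and summaries were made in Python 3.11.15. The scripts were tested on simulated data. The members and lists were chosen with earlier results of these data known. The text names the members, their second arms, the 3 miRNAs nearest in ratio, near-identical probes, and each list's extremes, and names outside that rule were chosen after their values were seen.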

Additional observations from a re-analysis of the deposited data

How the results depend on the processing

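The difference between the members, -0.20, moved by less than the spread between spots under all 16 alternatives. Those that change only the divisor or the rule for detection cannot move this difference, so they are no check of it. The members' own ratios moved by more than the spread between spots under 8 of the 16. For miR-26a and miR-26b these gave log2 ratios of -0.40 and -0.20 with the 75th percentile of all mouse miRNA probes, 0.22 and 0.42 without scaling, -0.35 and -0.15 with quantile normalization, -0.71 and -0.51 with positive control probes, 0.054 and 0.25 with spike-in probes, -0.48 and -0.29 with total gene signal, -0.42 and -0.22 in the authors' processed values, and -0.41 and -0.21 when all spots of a probe had to be well above background. These settings shift the median of the miRNAs compared by up to 0.47. Relative to that median, miR-26a was lower in all 15 alternatives where the median can be read, from -0.34 to -0.014. miR-26b was lower in 14 of 15. The exception was normexp correction, with miR-26b at 0.17 above a median of -0.20. A change of the divisor alone moves a member and the median together. Such settings leave miR-26a at -0.25 and miR-26b at -0.054 from the median by construction, so they are no check of these values. Of 175 miRNAs, those at least 2-fold lower and higher numbered 31 and 10 with all mouse probes and 8 and 49 without scaling. They numbered 48 and 7 with positive controls, 11 and 35 with spike-ins and 32 and 10 with total gene signal. In the authors' values they were 34 and 13 of 192. The count of higher miRNAs was 7 of 175 with normexp and 7 of 148 with all spots well above background. At 1.5-fold the counts were 44 and 44, and at 3-fold 5 and 5, by the construction of the size. Otherwise the cause was not tested. No paired analysis was possible because each genotype has 1 array. Signal over background does not limit the miR-26 readings, and it leaves their second arms unread.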
